A study of Mus musculus with 12 samples.

Results

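The 31 genes described here encode the enzymes that make cholesterol and fatty acids together with the proteins that control them, and were examined in the RNA-seq libraries of mouse bone marrow-derived dendritic cells (BMDCs). They are the members of a list of gene symbols with these functions, found by exact match among the 41709 genes of the deposited tables. All 31 were detected and all 31 passed the filter on low counts in each comparison. By role they fall into 8 genes of the route from acetyl-CoA over mevalonate to squalene, 11 genes that convert squalene to cholesterol, 6 genes of sterol sensing and transport, and 6 genes of fatty acid synthesis.

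Cholesterol and fatty acids are both built from acetyl-CoA, and many of the enzymes are under shared control by the sterol regulatory element-binding proteins (SREBPs). These transcription factors, encoded by Srebf1 and Srebf2, are held in the membrane of the endoplasmic reticulum by the escort protein Scap and the Insig proteins while sterols are plentiful. When sterols run short, Scap carries the SREBPs to the Golgi, where proteases release the part that enters the nucleus. In dendritic cells and macrophages, stimulation of Toll-like receptor 4 by lipopolysaccharide (LPS) is known to alter lipid metabolism.

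BMDCs of 2 genotypes were sequenced, either unstimulated or after LPS, which gives 4 groups of 3 libraries (12 in all). Both genotypes carry CD18 alleles (the gene Itgb2, common subunit of the beta2 integrins) in which exon 3 is flanked by loxP sites. CD18fl/fl cells have no Cre, and CD18CD11c cKO cells express Cre under the control of the CD11c promoter, so that deletion is limited to cells in which this promoter is active. Bone marrow cells were grown with GM-CSF for 10 days, LPS was given at 100 ng/mL (24 h by the labels, overnight by the study's methods), and MHCII-positive cells were isolated in all groups before RNA extraction. The 2 LPS comparisons share no library with each other, but each shares its groups with the 2 genotype comparisons. No source states whether the libraries of a group came from separate mice or cultures, so the p-values measure only the spread between these libraries.

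Each library held between 29689149 and 34037178 reads on genes, so that 3 reads, the number taken as the detection floor, correspond to between 0.0881 and 0.101 CPM, the count scaled to library size. CPM values of genes below are in addition scaled by the trimmed mean of M-values (TMM). Itgb2 was at 379 to 420 CPM in unstimulated CD18fl/fl and at 120 to 189 CPM in unstimulated CD18CD11c cKO libraries, and at 167 to 266 and 89.7 to 119 CPM after LPS. The groups did not overlap in either state. The edgeR test used below (adjusted p under 0.05), in its fit without a block, called 0 genes between the genotypes in either state. Itgb2 was thus not called by it either. All 6 genes of an LPS response list (Il6, Il12b, Nos2, Ccl5, Cd40 and Acod1) were higher in every LPS library than in every unstimulated library of the same genotype. The dendritic cell genes Itgax, Zbtb46, Cd74 and H2-Aa were detected in every library. The full list of 10 dendritic cell markers summed to 16258.5 to 46420.4 CPM and was lowest in replicate 3 of each group. Same-numbered libraries deviated together from their group means (correlations of 0.265 to 0.716 over 12 pairs of libraries and 13752 genes), and replicate 3 stood apart from replicates 1 and 2 in every group. Replicates 1 and 2 of different groups also deviated together across unlike numbers (0.154 to 0.334). Where fitting the replicate number as a block changed a call of a member, both fits are given, and log2 fold changes are followed by their standard error (3 libraries per group). In both CD18CD11c cKO groups replicate 3 held 0 to 2 reads of 4 Y-linked genes, whose summed level was 76.2 to 358 CPM in the other 10 libraries. Neutrophil markers (8 genes) summed to 1314 CPM in CD18fl/fl unstimulated replicate 1 and to 8.82 to 193 CPM elsewhere. Levels of neutrophil, B cell, mast cell, T and NK cell and macrophage markers differed between groups, and their sums by group are given below. The 5 markers of fibroblasts and endothelium summed to 3.30 to 21.97 CPM. The 5 adipocyte markers summed to 0 to 0.567 CPM, and Lep was at 0 reads in every library.

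The bases upstream of a gene are shown for 5 of the members described below, since SREBPs and their partner factors act at such sites. These are the 3 mevalonate genes Hmgcs1, Idi1 and Pmvk, the sterol gene Dhcr7 and the fatty acid synthase gene Fasn. Hmgcs1 was not called by edgeR in any comparison, without or with the block, and Lbr, called after LPS in both genotypes, is not shown. The sequences come from RefSeq windows of the GRCm38.p6 assembly and were placed by a unique exact match in GRCm39. Of the 250 bases before each transcript start, only the stretch outside exons of annotated coding transcripts is printed. Capitals mark the SREBP consensus TCACNCCAC, the CCAAT box (CCAAT, bound by NF-Y) and the GC box (GGGCGG, bound by Sp1), searched on both strands. In Fasn the run CCAATTGG holds overlapping CCAAT matches of both strands.
Hmgcs1, chr13:120151637-120151886, plus strand: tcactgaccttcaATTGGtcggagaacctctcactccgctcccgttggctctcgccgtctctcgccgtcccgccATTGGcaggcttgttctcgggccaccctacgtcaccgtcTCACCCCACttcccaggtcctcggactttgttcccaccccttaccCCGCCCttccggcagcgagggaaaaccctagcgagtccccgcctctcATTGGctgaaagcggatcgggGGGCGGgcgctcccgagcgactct
Idi1, chr13:8935392-8935536, plus strand: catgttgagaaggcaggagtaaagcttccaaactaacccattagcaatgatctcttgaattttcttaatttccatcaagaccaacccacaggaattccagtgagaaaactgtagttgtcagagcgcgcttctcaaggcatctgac
Pmvk, chr3:89361598-89361757, plus strand: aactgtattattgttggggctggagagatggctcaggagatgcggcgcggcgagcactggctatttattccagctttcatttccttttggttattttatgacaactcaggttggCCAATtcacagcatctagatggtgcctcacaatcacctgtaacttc
Dhcr7, chr7:143376654-143376739, plus strand: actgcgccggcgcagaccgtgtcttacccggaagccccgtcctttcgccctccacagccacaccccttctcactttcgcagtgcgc
Fasn, chr11:120715403-120715623, minus strand: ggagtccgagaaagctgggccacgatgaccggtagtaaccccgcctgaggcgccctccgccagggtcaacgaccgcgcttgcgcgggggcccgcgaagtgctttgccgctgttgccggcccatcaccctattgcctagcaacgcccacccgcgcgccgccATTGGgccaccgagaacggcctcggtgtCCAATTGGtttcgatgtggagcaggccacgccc

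Such windows were used for 25 of the 31 members (33 windows). Windows on chromosome 18, where Stard4 lies, were left out for the members but not from the windows of all genes. Over the full 250 bases, the SREBP consensus occurred in 1 member window, that of Hmgcs1 (3.03% of member windows against 1.05% of all 32851 windows). The CCAAT box occurred in 63.6% of member windows against 33.8% of all windows, and the GC box in 72.7% against 32.7%. The E-box CACGTG occurred in 15.2% against 6.02%. The motifs of a gene can lie in the part of its window that is not printed, as for Idi1, whose 250 bases hold a CCAAT box and a GC box. These are counts of letters and not of bound sites.

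Between genes, levels were compared as CPM per kb of exon length. Idi1 had the highest mean level of the 31 members in each of the 4 groups, between 105 CPM per kb in unstimulated CD18fl/fl and 459 CPM per kb in CD18fl/fl after LPS. Pmvk ranked 2 in 3 groups and 3 in unstimulated CD18CD11c cKO, behind Msmo1. Elovl6, which lengthens palmitate, had the lowest level in each group, with 0.146 to 0.691 CPM per kb. The median member was at 8.30, 9.70, 11.98 and 8.52 CPM per kb in unstimulated and LPS-treated CD18fl/fl and in unstimulated and LPS-treated CD18CD11c cKO libraries, respectively.

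The plot of all members by library shows how replicate 3 differed. In 9 of the 31 members (Acat2, Lss, Hsd17b7, Stard4, Acly, Acaca, Fasn, Elovl6 and Scd2) replicate 3 was above replicates 1 and 2 in all 4 groups, which held for 17% of all genes. In 2 members, Idi1 and Pmvk, it was below them in all 4 groups, against 15.7% of all genes. For Acat2, replicate 3 was at 4.84 to 11.9 times the mean of replicates 1 and 2, and for Pmvk at 0.0806 to 0.388 times that mean. Of the 6 fatty acid genes, all but Scd1 belonged to the members that were higher in replicate 3.

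**Figure D1:**
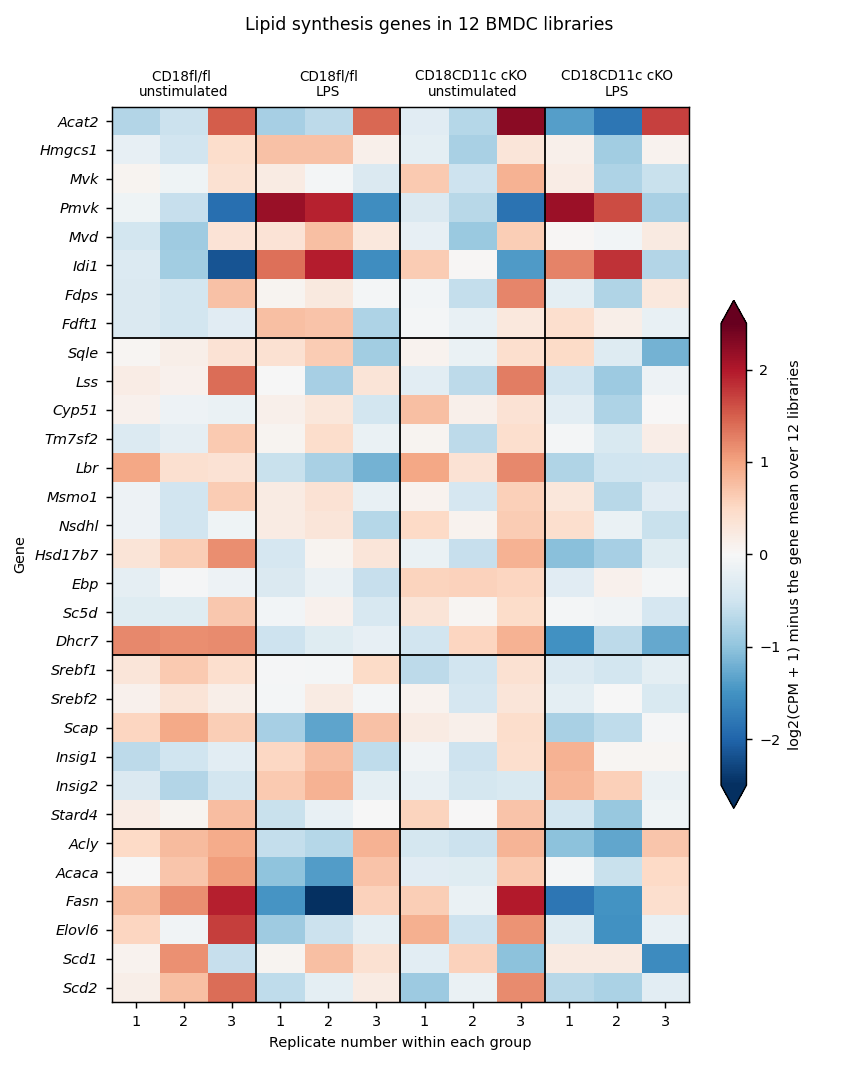
Levels of the 31 genes (vertical axis, in the order of their roles, black lines between roles) in 12 libraries (horizontal axis, by group and replicate number), as log2(CPM + 1) minus the mean of the gene over the 12 libraries, with colours clipped at 2.5 in either direction. Idi1 and Pmvk are lowest and Acat2, Fasn and Scd2 are highest in replicate 3 of each group, while Lbr is lower in every LPS library than in every unstimulated library of the same genotype.

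The first question was how these genes differed between LPS-treated and unstimulated cells. In CD18fl/fl, 2 members fell and 0 rose by edgeR (quasi-likelihood test, adjusted p under 0.05), with 7 members at an unadjusted p under 0.05, while DESeq2 called 3 lower and 2 higher (5.89% and 6.91% of the 14027 genes with an adjusted p). Among all 12744 genes tested, 2.06% rose and 1.83% fell by the same rule (3.89% in all), and 23.8% had an unadjusted p under 0.05. With the replicate block 4 members fell, Lbr, Dhcr7, Fasn and Scd2, and 0 rose, against 6.43% and 6.33% of all genes (12.8% in all), and 14 had an unadjusted p under 0.05 (32.5% of all genes). In CD18CD11c cKO, 1 member fell and 0 rose (7 at an unadjusted p under 0.05; DESeq2 called 2 lower and 1 higher, against 5.3% and 5.45% of all genes), against 1.76% and 2.23% of 12687 genes (3.99% in all, and 21.2% at an unadjusted p under 0.05). With the block 7 fell, Acat2, Cyp51, Lbr, Ebp, Dhcr7, Stard4 and Fasn, and 2 rose, Pmvk and Idi1, against 9.93% and 10.2% of all genes (20.2% in all), and 16 had an unadjusted p under 0.05 (34.7% of all genes). In bulk RNA, fewer cells that express a gene cannot be told apart from less RNA per cell.

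Markers of other cell types also differed between unstimulated and LPS-treated libraries. The 4 B cell markers summed to 22.3, 70.0 and 0.561 CPM in unstimulated CD18fl/fl and to 5.43, 12.9 and 0.965 CPM after LPS, and to 75.5, 95.2 and 0.491 CPM and 13.8, 26.0 and 0.356 CPM in CD18CD11c cKO (replicates 1 to 3), with 2 of the 4 lower by edgeR with the block in each genotype and 0 without it. The 5 mast cell and basophil markers summed to 10.0, 11.6 and 35.0 CPM before and 1.70, 0.483 and 15.6 CPM after LPS in CD18fl/fl, and to 10.6, 8.90 and 117 CPM before and 3.73, 2.92 and 75.5 CPM after in CD18CD11c cKO, lower in all 6 pairs. The 4 T and NK cell markers summed to 3.15 to 18.1 CPM before and 0.127 to 1.56 CPM after LPS in CD18fl/fl, without overlap, and to 0.578 to 21.3 CPM before and 0.550 to 3.00 CPM after in CD18CD11c cKO, with Klrb1c at 0 reads in every LPS library. The 8 macrophage and monocyte markers summed to 1203 to 1817 CPM before and 1739 to 2184 CPM after LPS in CD18fl/fl, and to 973 to 1240 and 1166 to 1392 CPM in CD18CD11c cKO. The 8 cycling cell markers summed to 50.4 to 138 CPM in unstimulated CD18fl/fl and 34.3 to 56.8 CPM after LPS, and to 94.5 to 325 and 33.3 to 66.1 CPM in CD18CD11c cKO, with 2 of the 8 lower by edgeR in each genotype (3 and 7 with the block). In CD18fl/fl, the 8 neutrophil markers summed to 1314, 111 and 8.82 CPM before and 42.2, 42.8 and 12.1 CPM after LPS. In CD18CD11c cKO they summed to 193, 156 and 10.6 CPM before and 56.1, 68.9 and 14.4 CPM after (replicates 1 to 3). They were lower after LPS in replicates 1 and 2 and higher in replicate 3 of both genotypes. The part of any of these cell types in the lower levels of members after LPS was not tested.

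Both members that fell in CD18fl/fl act late in the cholesterol route. Dhcr7, the reductase that forms cholesterol from its last precursor in the Kandutsch-Russell branch, was at 14.9, 14.4 and 14.8 CPM in the unstimulated libraries (replicates 1 to 3) and at 3.82, 4.65 and 5.00 CPM after LPS. The unstimulated libraries lay close together and the groups were far apart, with a log2 fold change of -1.71 ± 0.26 (SE, n = 3 per group, edgeR adjusted p = 0.022). In CD18CD11c cKO, Dhcr7 was at 3.95, 9.0 and 11.6 CPM before and at 1.42, 3.41 and 1.84 CPM after LPS. Here, too, every LPS library was below every unstimulated one, but the unstimulated libraries spread more, and the change of -1.94 ± 0.56 passed the edgeR test only with the block (-1.89 ± 0.39, adjusted p = 0.017, against 0.10 without). Dhcr7 spans chr7:143376882-143402147 on the plus strand of GRCm39. The 86 upstream bases printed above hold none of the marked motifs, whereas its windows of 250 bases hold a CCAAT box, a GC box and an E-box.

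Lbr, the lamin B receptor of the inner nuclear membrane that is also a sterol reductase, was at 22.2, 14.6 and 14.2 CPM in unstimulated CD18fl/fl and at 7.06, 5.69 and 4.22 CPM after LPS. It fell by 1.58 ± 0.33 on the log2 scale (edgeR adjusted p = 0.048). In CD18CD11c cKO it was at 22.1, 14.2 and 26.3 CPM before and at 6.03, 7.32 and 7.47 CPM after LPS, and it fell by 1.63 ± 0.31 (edgeR adjusted p = 0.042). The groups did not overlap in either genotype, and with the block both calls held (edgeR adjusted p = 0.014 and 0.0074). Lbr (chr1:181642900-181670611, minus strand) was the only member that passed the test in both genotypes without the block. Its fellow sterol reductase at the same step, Tm7sf2, was at 7.77 to 20.6 CPM over the unstimulated and at 9.52 to 17.8 CPM over the LPS libraries of both genotypes, with log2 fold changes of 0.05 ± 0.36 and -0.12 ± 0.36.

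The other 9 genes between squalene and cholesterol differed less. In CD18CD11c cKO, each of the 11 genes of this stretch had a negative log2 fold change after LPS (median -0.68, against -0.01 over all genes), and 8 of the 11 were lower in all 3 same-numbered pairs of libraries (27.4% of all genes). In CD18fl/fl, 7 of 11 were negative (median -0.20, against -0.02 over all genes) and 5 were lower in all 3 pairs (29.2% of all genes). With the block, Cyp51, the lanosterol demethylase, fell in CD18CD11c cKO from 126, 82.0 and 96.3 CPM to 62.6, 43.3 and 75.6 CPM (log2 fold change -0.81 ± 0.21, edgeR adjusted p = 0.038, against 0.20 without the block). Ebp, a sterol isomerase, fell there from 47.3, 47.5 and 46.6 CPM to 25.9, 34.2 and 30.7 CPM (-0.69 ± 0.18, edgeR adjusted p = 0.038 with and 0.14 without the block). The groups did not overlap for either gene. In CD18fl/fl the values of Cyp51 were 80.6, 68.8 and 66.5 CPM before and 81.9, 91.6 and 54.1 CPM after LPS, and those of Ebp were 27.2, 30.9 and 29.1 CPM before and 24.6, 28.6 and 21.0 CPM after, with overlapping groups for both. Hsd17b7, a keto-reductase of the demethylation steps, was lower in every LPS library than in every unstimulated library of CD18fl/fl (2.76 to 5.18 against 5.27 to 10.2 CPM), with a log2 fold change of -0.86 ± 0.40 that did not pass the test (edgeR adjusted p = 0.25). Lss, which closes the ring system of lanosterol, had log2 fold changes of -0.86 ± 0.52 and -1.02 ± 0.62 in the 2 genotypes, and its groups overlapped. For Sqle (squalene epoxidase), Msmo1 (a methyl oxidase), Nsdhl (a sterol dehydrogenase) and Sc5d (a desaturase) the log2 fold changes lay between -0.55 and 0.24, and none passed the test, although the groups of Sc5d did not overlap in CD18CD11c cKO (41.8 to 56.4 CPM before and 30.2 to 39.3 CPM after LPS). The span of Cyp51 overlaps that of Akap9 on the opposite strand, and the span of Tm7sf2 that of Vps51 on the same strand.

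Of all members, the mevalonate genes Pmvk and Idi1 had the highest log2 fold changes in both genotypes. Idi1, the isomerase of the isoprenoid building blocks (chr13:8935537-8942487, plus strand), was at 492, 342 and 139 CPM in unstimulated CD18fl/fl and at 1607, 2439 and 210 CPM after LPS. Each LPS library was above the unstimulated library of the same number, but replicate 3 after LPS was below unstimulated replicates 1 and 2. The log2 fold change was 2.13 ± 0.86, short of the threshold without (edgeR adjusted p = 0.19) and with the block (1.72 ± 0.44, adjusted p = 0.053), whereas DESeq2 called it (adjusted p = 0.031). In CD18CD11c cKO, Idi1 was at 963, 638 and 231 CPM before and at 1461, 2189 and 376 CPM after LPS, and it rose with the block (0.98 ± 0.25, edgeR adjusted p = 0.038, against 0.42 without).

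Pmvk, phosphomevalonate kinase (chr3:89361848-89376320, plus strand), was likewise lowest in replicate 3. It was at 99.5, 72.2 and 28.3 CPM in unstimulated CD18fl/fl and at 485, 411 and 36.1 CPM after LPS (2.22 ± 0.90, edgeR adjusted p = 0.20, and 0.059 with the block). In CD18CD11c cKO it was at 83.9, 66.7 and 29.2 CPM before and at 475, 335 and 61.4 CPM after LPS, and it rose with the block (1.93 ± 0.29, edgeR adjusted p = 0.0065, against 0.13 without). DESeq2 called Pmvk higher in both genotypes. In both, replicates 1 and 2 after LPS were above every unstimulated library, and replicate 3 was not.

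Acat2, which condenses acetyl-CoA to acetoacetyl-CoA, was at 11.3, 8.13 and 71.0 CPM in unstimulated CD18CD11c cKO and at 4.78, 3.32 and 48.3 CPM after LPS. It fell with the block (-1.06 ± 0.24, edgeR adjusted p = 0.023, against 0.80 without). It was lower in each pair of libraries, while replicate 3 was far higher than replicates 1 and 2 in both states. In CD18fl/fl its values before (8.02, 9.40 and 42.2 CPM) and after LPS (7.45, 8.59 and 39.9 CPM) lay close together within each replicate. Over all libraries 80.8% of the Acat2 reads and 46.8% of the reads of Fdps, the farnesyl pyrophosphate synthase gene, were unique, and the remaining reads also matched elsewhere.

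The other mevalonate genes did not pass the test in either genotype. Hmgcs1, which makes HMG-CoA, was at 52.5, 43.2 and 82.6 CPM before and 101, 102 and 66.3 CPM after LPS in CD18fl/fl, and at 51.1, 34.3 and 75.4 CPM before and 66.3, 32.9 and 64.7 CPM after in CD18CD11c cKO. Replicates 1 and 2 of LPS-treated CD18fl/fl were thus above all other Hmgcs1 values, whereas replicate 3 was not. Mvd, the decarboxylase that yields isopentenyl pyrophosphate, had log2 fold changes of 0.72 ± 0.36 in CD18fl/fl and 0.05 ± 0.40 in CD18CD11c cKO. Fdft1, squalene synthase, had 0.77 ± 0.41 and 0.08 ± 0.25. Its span overlaps that of Ctsb on the opposite strand, which drew 55702 to 172112 reads per library, and the sources do not state counting by strand. Mvk, mevalonate kinase, had log2 fold changes of -0.19 ± 0.27 and -0.88 ± 0.44, and Fdps had 0.02 ± 0.36 and -0.63 ± 0.52. The median over the 8 genes was 0.66 in CD18fl/fl and 0.02 in CD18CD11c cKO.

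**Figure D2:**
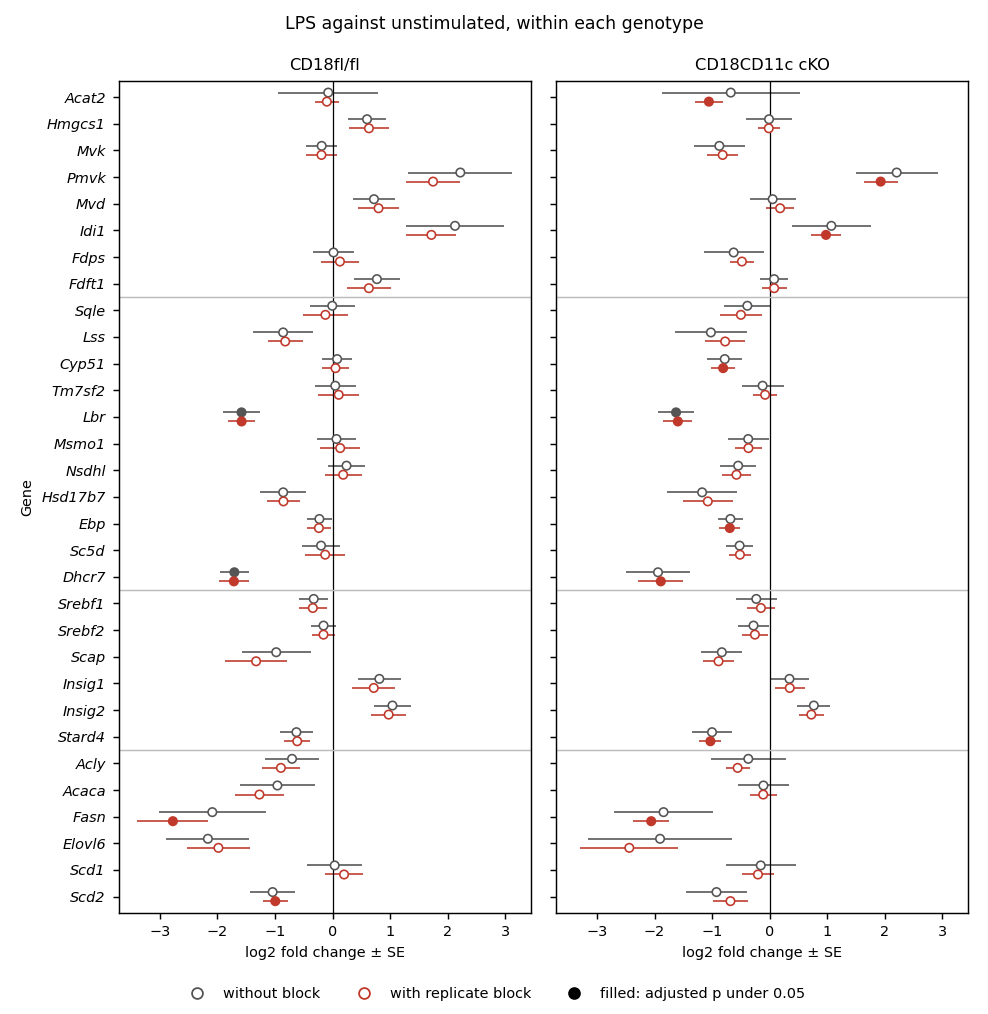
Log2 fold change of LPS against unstimulated for the 31 genes (vertical axis) in each genotype, with its standard error as the bar (n = 3 libraries per group), without (grey) and with the replicate block (red). Filled points passed the edgeR threshold: without the block Lbr and Dhcr7 in CD18fl/fl and Lbr in CD18CD11c cKO, with it 4 and 9 genes.

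Among the genes that sense and carry sterols, neither SREBP gene passed the edgeR test after LPS, without or with the block. Srebf2, whose product mainly drives cholesterol synthesis, was at 77.6 to 91.0 CPM before and 69.4 to 82.8 CPM after LPS in CD18fl/fl, with a log2 fold change of -0.16 ± 0.21, and -0.28 ± 0.26 in CD18CD11c cKO. Srebf1, whose product mainly drives fatty acid synthesis and whose span overlaps Rai1 on the opposite strand, was at 21.1, 27.2 and 22.9 CPM before and 16.4, 16.2 and 23.9 CPM after LPS in CD18fl/fl, and at 10.3, 11.8 and 22.3 CPM before and 13.04, 11.99 and 14.0 CPM after in CD18CD11c cKO. The groups overlapped in both genotypes (-0.33 ± 0.26 and -0.23 ± 0.35). Insig2, which retains the SREBP escort in the endoplasmic reticulum, was the only member higher in every LPS library than in every unstimulated library of its genotype, in both genotypes. It was at 22.7, 17.4 and 21.2 CPM before and 46.8, 54.4 and 24.7 CPM after LPS in CD18fl/fl, and at 25.9, 21.6 and 22.5 CPM before and 53.1, 44.8 and 26.2 CPM after in CD18CD11c cKO. Its changes of 1.04 ± 0.33 and 0.77 ± 0.29 missed the edgeR threshold (adjusted p = 0.12 and 0.18, and 0.089 and 0.059 with the block). Insig1, of the same function, had 0.81 ± 0.38 and 0.34 ± 0.35, with overlapping groups.

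Scap, the escort itself, was at 13.8, 18.8 and 14.6 CPM before and 4.72, 3.09 and 15.9 CPM after LPS in CD18fl/fl, so that replicates 1 and 2 were lower after LPS and replicate 3 was not (-0.98 ± 0.60, edgeR adjusted p = 0.36). In CD18CD11c cKO it was at 10.8, 10.1 and 12.8 CPM before and 4.82, 5.57 and 8.96 CPM after, without overlap (-0.83 ± 0.36, edgeR adjusted p = 0.24, and 0.057 with the block). Stard4, a sterol transfer protein, was at 23.8, 21.7 and 35.96 CPM before and 13.8, 18.1 and 20.6 CPM after LPS in CD18fl/fl, again without overlap (-0.63 ± 0.29, edgeR adjusted p = 0.24). In CD18CD11c cKO it was at 30.9, 21.0 and 34.9 CPM before and at 14.7, 10.2 and 19.3 CPM after, and it fell with the block (-1.03 ± 0.19, edgeR adjusted p = 0.012, against 0.15 without).

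Of the 6 fatty acid synthesis genes, 5 were lower after LPS in all 3 same-numbered pairs of CD18fl/fl libraries (29.2% of all genes), and their median fold change was -1.0 on the log2 scale, where that of all genes was -0.02. In CD18CD11c cKO, 3 of the 6 (Acly, Fasn and Elovl6) were lower in all 3 pairs (27.4% of all genes), with a median of -0.65, against -0.01 over all genes. Fasn, the synthase that assembles palmitate (chr11:120696672-120715373, minus strand), was at 18.6, 24.5 and 42.6 CPM before and 3.08, 0.967 and 15.9 CPM after LPS, without overlap. It fell with the block (-2.77 ± 0.62, edgeR adjusted p = 0.038) and missed the threshold without it (-2.09 ± 0.93, adjusted p = 0.22). In CD18CD11c cKO, Fasn was at 16.3, 9.10 and 44.1 CPM before and 2.23, 3.01 and 14.1 CPM after LPS, and it fell with the block (-2.06 ± 0.31, edgeR adjusted p = 0.0064, against 0.28 without). Within each group, replicate 3 was the highest, and in CD18CD11c cKO LPS-treated replicate 3 was above unstimulated replicate 2.

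Scd2, a stearoyl-CoA desaturase, was at 77.0, 118 and 185 CPM before and 44.6, 58.6 and 80.5 CPM after LPS in CD18fl/fl, and it fell with the block (-1.0 ± 0.21, edgeR adjusted p = 0.035, against 0.17 without; 0.053 with the block and an offset for exon length). Its groups overlapped, as replicate 3 after LPS was above unstimulated replicate 1. In CD18CD11c cKO its change of -0.93 ± 0.53 did not pass the test. Scd1, its relative, had log2 fold changes of 0.04 ± 0.47 and -0.16 ± 0.60. Elovl6 was at 3.13, 1.70 and 8.497 CPM before and 0.546, 0.967 and 1.42 CPM after LPS in CD18fl/fl (-2.17 ± 0.72, edgeR adjusted p = 0.14; 0.027 by DESeq2). In CD18CD11c cKO it was at 4.27, 1.00 and 5.23 CPM before and at 1.30, 0 and 1.52 CPM after, where 0 reads allow up to 0.101 CPM before TMM scaling. Acly, which supplies cytosolic acetyl-CoA, was at 89.9, 111 and 123 CPM before and 41.6, 38.5 and 117 CPM after LPS in CD18fl/fl, so that replicate 3 alone stayed near its unstimulated level (-0.70 ± 0.46, edgeR adjusted p = 0.39). Acaca, acetyl-CoA carboxylase, showed the same order, with 10.1, 17.02 and 21.8 CPM before and 4.53, 3.23 and 17.2 CPM after LPS (-0.96 ± 0.66, edgeR adjusted p = 0.41). In CD18CD11c cKO the log2 fold changes of Acly and Acaca were -0.37 ± 0.65 and -0.11 ± 0.45.

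Over all 31 members, the median log2 fold change after LPS was -0.16 in CD18fl/fl and -0.52 in CD18CD11c cKO, with 18 and 25 of the 31 values negative. No share of negative values over all genes is set beside these counts, so they do not show a trait of the members. In CD18fl/fl, 6 members were lower and 1 was higher in every LPS library than in every unstimulated library, against 15.9% and 13.6% of all genes (29.5% in all). In CD18CD11c cKO these numbers were 7 and 1, against 13.4% and 14.8% (28.1% in all). Lower values in all 3 same-numbered pairs were found for 13 members in CD18fl/fl (29.2% of all genes) and for 16 in CD18CD11c cKO (27.4% of all genes), and higher values in all 3 pairs for 3 members in each (25.5% and 30.1% of all genes). Without replicate 3 of each group, a choice made after seeing the data that leaves 2 libraries per group, edgeR called 10 members higher and 8 lower in CD18fl/fl, against 23.2% and 24.3% of all genes, and 2 higher and 2 lower in CD18CD11c cKO, against 7.93% and 7.99% of all genes. The 10 higher were Hmgcs1, Pmvk, Mvd, Idi1, Fdps, Fdft1, Msmo1, Nsdhl, Insig1 and Insig2. The 8 lower were Lbr, Dhcr7, Srebf1, Scap, Acly, Acaca, Fasn and Scd2. In CD18CD11c cKO these were Insig2 and Pmvk as higher and Lbr and Fasn as lower.

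**Figure D3:**
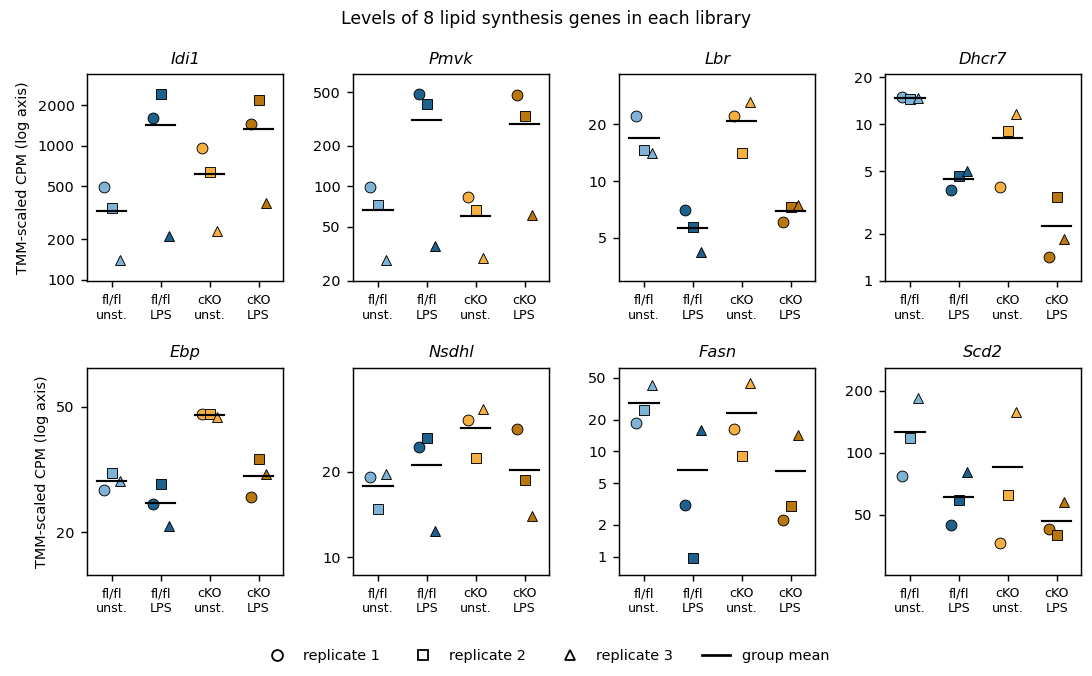
TMM-scaled CPM (log axis) of 8 members in each library, by group (fl/fl, CD18fl/fl; cKO, CD18CD11c cKO; unst., unstimulated), with a symbol for each replicate and a line at the arithmetic mean of 3 libraries. Lbr and Dhcr7 are lower after LPS in both genotypes without overlap, Idi1 and Pmvk are high after LPS in replicates 1 and 2 and not in replicate 3, and Ebp lies at 46.6 to 47.5 CPM in unstimulated CD18CD11c cKO, above all other groups.

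The second question was whether the genotypes differed. In unstimulated cells, 0 of the 31 members and 0% of 12876 genes passed the edgeR test without the block, with 3 members (Cyp51, Nsdhl and Ebp) and 16.8% of all genes at an unadjusted p under 0.05, while DESeq2 called 1 member higher (Ebp) and 0 lower (5.5% and 0.527% of all genes). With the block, 4 members were higher and 1 was lower in CD18CD11c cKO, against 12.1% and 8.16% of all genes (20.2% in all), and 13 had an unadjusted p under 0.05 (36.2% of all genes). The median log2 fold change over the members was -0.00, against -0.05 over all genes. The groups did not overlap for 4 members that were higher (Fdft1, Cyp51, Nsdhl and Ebp) and for 2 that were lower (Dhcr7 and Scap), against 11.7% and 13.1% of all genes (24.8% in all). In all 3 pairs, 6 members were higher (24% of all genes) and 10 lower (33.9% of all genes).

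Ebp was at 27.2, 30.9 and 29.1 CPM in CD18fl/fl and at 47.3, 47.5 and 46.6 CPM in CD18CD11c cKO, with little spread in either group. The log2 fold change was 0.75 ± 0.17 (edgeR adjusted p = 0.12) and 0.76 ± 0.14 with the block (adjusted p = 0.011), and it was 0.48 with an adjusted p of 0.056 when an offset for exon length was added to the block. Nsdhl was at 19.2, 14.8 and 19.6 against 30.3, 22.3 and 33.1 CPM and was higher with the block (0.73 ± 0.15, edgeR adjusted p = 0.017, against 0.21 without). Both genes lie on chromosome X, and replicate 3 of CD18CD11c cKO was the library almost without Y-linked reads. From replicates 1 and 2 alone, the value of Ebp was 0.77 (edgeR adjusted p = 0.040) and that of Nsdhl 0.69 (edgeR adjusted p = 0.095). This choice of libraries was made after seeing the data and leaves 2 per group. The part of the sex chromosomes in these differences was not tested.

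Cyp51 was at 80.6, 68.8 and 66.5 CPM in CD18fl/fl and at 126, 82.0 and 96.3 CPM in CD18CD11c cKO, and was higher with the block (0.54 ± 0.14, edgeR adjusted p = 0.039, against 0.29 without). Idi1 was at 492, 342 and 139 against 963, 638 and 231 CPM, higher in each pair, and passed the test with the block (0.92 ± 0.13, edgeR adjusted p = 0.0054, against 0.48 without). Scd2 was at 77.0, 118 and 185 against 36.5, 62.2 and 159 CPM and was lower with the block (-0.69 ± 0.20, edgeR adjusted p = 0.045, against 0.71 without; 0.12 with the length offset). Dhcr7 was lower in each CD18CD11c cKO library (3.95, 9.0 and 11.6 CPM) than in each CD18fl/fl library (14.4 to 14.9 CPM), but missed the threshold (-0.78 ± 0.39, edgeR adjusted p = 0.36, and 0.081 with the block). Fdft1 was at 35.1 to 39.5 against 42.5 to 58.7 CPM (0.45 ± 0.19, edgeR adjusted p = 0.30, and 0.068 with the block), and Scap at 13.8 to 18.8 against 10.1 to 12.8 CPM. All 6 fatty acid genes had negative log2 fold changes, between -0.59 and -0.24 (median -0.48). Acly, Acaca, Scd1 and Scd2 were lower in all 3 same-numbered pairs (33.9% of all genes), and Fasn and Elovl6 were not. Leaving out 1 library took Fasn, Elovl6 and Scd1 to values of up to 0.15, 0.57 and 0.18. The exon lengths of the 6 fatty acid genes were 4610 to 10605 bases, against a median of 3391 over all genes, and log2 fold changes fell with exon length here (next paragraph). The part of exon length in their values was not tested, and of the length offset only the result of Scd2 is given here. The 8 cycling cell markers summed to 94.5 to 325 CPM in these CD18CD11c cKO libraries against 50.4 to 138 CPM in CD18fl/fl. In replicates 1 to 3, B cell markers summed to 75.5, 95.2 and 0.491 against 22.3, 70.0 and 0.561 CPM. Neutrophil markers summed to 193, 156 and 10.6 against 1314, 111 and 8.82 CPM. Mast cell and basophil markers summed to 10.6, 8.90 and 117 against 10.0, 11.6 and 35.0 CPM, and T and NK cell markers to 21.3, 8.97 and 0.578 against 16.4, 18.1 and 3.15 CPM. The part of any of these cell types in these differences was not tested.

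These calls depended on the scaling. When libraries were scaled by their total alone, the median of all genes moved to -0.44 in this comparison, and with the block Idi1 was the only member higher (0.53, edgeR adjusted p = 0.016) while 10 were lower, against 5.44% and 30.1% of all genes. The values of Cyp51, Nsdhl and Ebp were then 0.14, 0.34 and 0.36 and missed the threshold. With all 12 libraries and the block, Ebp alone passed (0.70, edgeR adjusted p = 0.029), against 4.93% of all genes higher and 3.18% lower. The log2 fold change fell with exon length over all genes in this comparison (Spearman's rho = -0.38 across 12236 genes, which are not independent), and the members' median exon length was 3931 bases against 3391 bases.

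After LPS, 0 members passed the edgeR test between the genotypes without or with the block, and DESeq2 called 0 (1.22% of all genes higher and 0.078% lower). Of all 12441 genes, 0% passed without the block, and with it 6.98% were higher and 3.16% lower (10.1% in all). At an unadjusted p under 0.05 were 0 members without (9.74% of all genes) and 6 members with the block (28.1% of all genes). The values of 26 of the 31 members were negative, with a median of -0.27 against -0.11 over all genes. The share of negative values over all genes is not given beside this count. The 8 macrophage and monocyte markers summed to 1739 to 2184 CPM in these CD18fl/fl libraries and to 1166 to 1392 CPM in CD18CD11c cKO, without overlap (1203 to 1817 against 973 to 1240 CPM, overlapping, in unstimulated cells), and their part in these values was not tested. Hmgcs1 was at 101, 102 and 66.3 CPM in CD18fl/fl and at 66.3, 32.9 and 64.7 CPM in CD18CD11c cKO, where the lowest and the highest value of the groups nearly met (-0.74 ± 0.34, edgeR adjusted p = 0.56, and 0.14 with the block). Dhcr7 had the most negative value, with 3.82, 4.65 and 5.00 against 1.42, 3.41 and 1.84 CPM (-1.04 ± 0.45, edgeR adjusted p = 0.53, and 0.11 with the block). Mvd and Srebf1 also did not overlap, so that 4 members were lower and 0 higher in every CD18CD11c cKO library, against 8.1% and 9.51% of all genes (17.6% in all). In all 3 pairs, 10 members were lower (26.2% of all genes) and 1 was higher (23.1% of all genes). Idi1 and Pmvk, with -0.11 ± 0.89 and -0.13 ± 0.98, had wide errors that cover differences in either direction.

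Whether the LPS effect itself differed between the genotypes was tested by the interaction term. By edgeR, 0 members and 0% of 13752 genes passed without or with the block, with 0 and 2 members (Cyp51 and Acaca) at an unadjusted p under 0.05 (0.705% and 1.98% of all genes), and DESeq2 called 0 members. Idi1 had the most negative value (-0.99 ± 1.196) and Acaca the highest (0.89 ± 0.84). The 11 squalene to cholesterol genes had values between -0.82 and -0.00 (median -0.28, against 0.02 over all genes), and their standard errors lay between 0.27 and 0.85. A call in 1 genotype and not in the other, as for Cyp51 or Stard4 after LPS, is therefore not shown to be a difference between the genotypes.

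**Figure D4:**
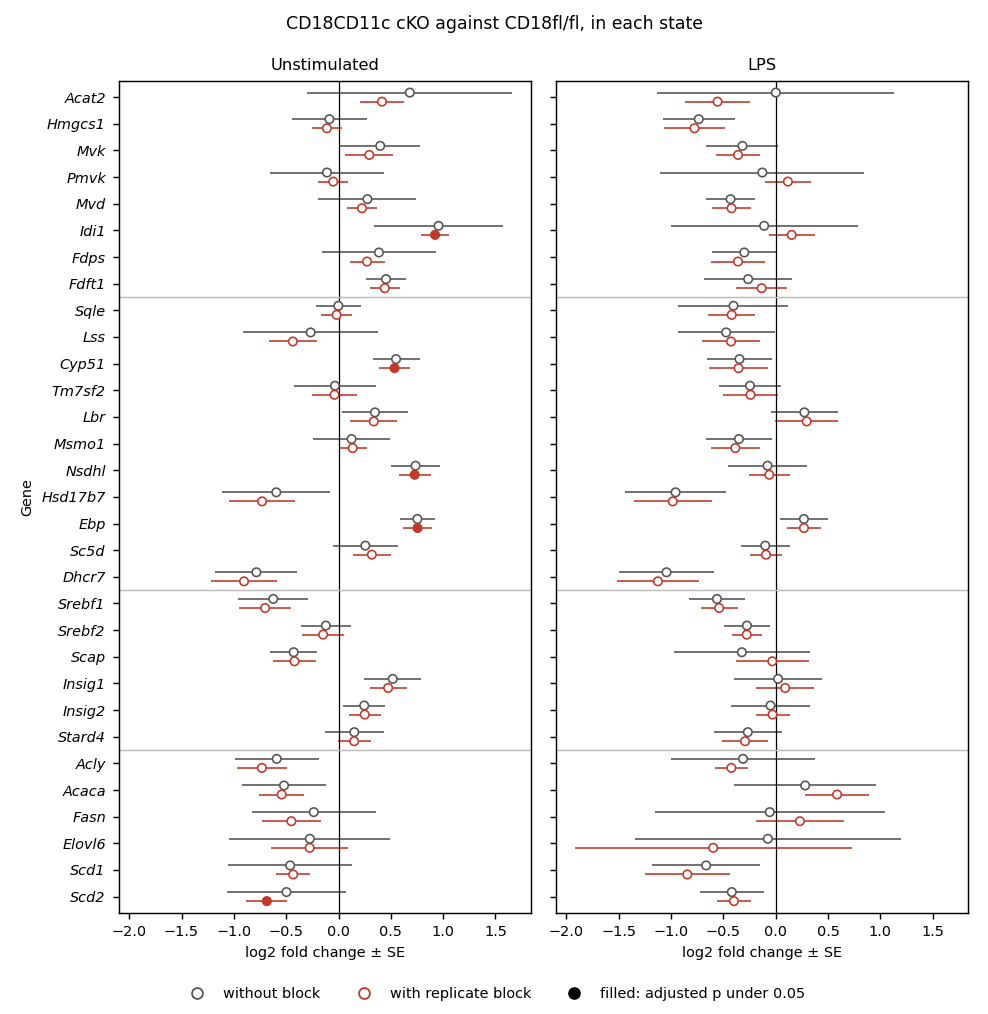
Log2 fold change of CD18CD11c cKO against CD18fl/fl for the 31 genes (vertical axis) in unstimulated and LPS-treated cells, with its standard error as the bar (n = 3 libraries per group), without (grey) and with the replicate block (red). Filled points passed the edgeR threshold: with the block Idi1, Cyp51, Nsdhl, Ebp and Scd2 in unstimulated cells, and no gene after LPS.

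Further genes of the same pathways were examined by lists chosen by function. Of 13 further sterol synthesis and SREBP pathway genes, 1 rose after LPS in CD18fl/fl and 0 fell, against 2.06% and 1.83% of all genes. This was Acss2, which makes acetyl-CoA from acetate (log2 fold change 2.19 ± 0.45, edgeR adjusted p = 0.049). In CD18CD11c cKO 0 passed without the block (4 at an unadjusted p under 0.05). With the block, where 10.2% of all genes rose and 9.93% fell, Acss2, Ggps1 and Erlin1 rose there (edgeR adjusted p = 0.024, 0.015 and 0.024, against 0.090, 0.062 and 0.48 without). Mbtps2 and Aacs were among the genes that fell (edgeR adjusted p = 0.029 and 0.043, against 0.14 and 0.44 without).

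Of 11 genes of sterol efflux, hydroxylation and storage, 10 were tested after LPS. Nceh1, a cholesteryl ester hydrolase, fell in both genotypes (-1.46 ± 0.28 and -2.18 ± 0.41, edgeR adjusted p = 0.041 in both), the only 1 of the 10 called in each, where 1.83% and 1.76% of all genes fell. Nr1h3, the liver X receptor alpha gene, rose in both with the block (2.47 ± 0.29 and 1.69 ± 0.23, edgeR adjusted p = 0.0075 and 0.0049) and missed the threshold without it (2.55 ± 0.95 and 1.75 ± 0.87, edgeR adjusted p = 0.17 and 0.30). Between the genotypes after LPS, 4 of the 10 genes were lower and 0 higher in CD18CD11c cKO with the block, against 3.16% and 6.98% of all genes, with Nceh1, Soat1 and Mylip leading (edgeR adjusted p = 0.010, 0.019 and 0.034, against 0.43, 0.39 and 0.81 without). Without the block 0 passed (3 at an unadjusted p under 0.05). Genotype counts with the block are not given for unstimulated cells or for the other lists of further genes. The lower levels are thus not shown to be particular to this list or state.

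Of 24 further genes of fatty acid synthesis, elongation and desaturation, 20 were tested after LPS. Acsl1, which activates long-chain fatty acids, rose in both genotypes (3.19 ± 0.27 and 3.02 ± 0.35, edgeR adjusted p = 0.0099 and 0.013). Me1, the malic enzyme that yields NADPH, rose in CD18fl/fl (1.99 ± 0.37, edgeR adjusted p = 0.039) and Hacd3, of the elongation cycle, in CD18CD11c cKO (1.36 ± 0.27, edgeR adjusted p = 0.042). Without the block, 2 of the 20 rose in each genotype (2.06% and 2.23% of all genes) and 0 fell (1.83% and 1.76% of all genes). Of 13 fatty acid oxidation genes, 12 were tested, and Acaa2, a thiolase of mitochondria, fell in both genotypes (-1.91 ± 0.26 and -1.85 ± 0.29, edgeR adjusted p = 0.016 and 0.026). Hadh, a dehydrogenase of the same cycle, fell in CD18fl/fl (-1.28 ± 0.25, edgeR adjusted p = 0.044), so that 2 and 1 of the 12 fell and 0 rose. Between the genotypes, 0 genes of these 4 lists passed the edgeR test without the block in either state (in the order of the lists, 2, 1, 3 and 4 genes at an unadjusted p under 0.05 in unstimulated cells and 0, 3, 0 and 2 after LPS). With the block, 20.2% of all genes passed in unstimulated cells and 10.1% after LPS. For these lists, genotype calls with the block are given only for sterol efflux, hydroxylation and storage after LPS.

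The calls of Lbr and Dhcr7 rested on few libraries, as did the calls of all genes. In CD18fl/fl, 0 genes passed in either direction without replicate 1 or 2 of either group. Without replicate 3, 252 genes rose and 254 fell (unstimulated left out), or 1613 and 1655 (LPS left out). In CD18CD11c cKO, 545 rose and 488 fell without LPS replicate 3, and 0 to 197 and 0 to 160 without any other library. In CD18fl/fl, the edgeR call of Lbr was kept without LPS replicate 3 and lost without any of the other 5 libraries (adjusted p = 0.058 to 0.19), and that of Dhcr7 was kept without replicate 3 of either group and lost without any of the other 4 (0.11 to 0.13), while the log2 fold changes stayed between -1.78 and -1.34 and between -1.80 and -1.60. In CD18CD11c cKO, Lbr was called without LPS replicate 3 and otherwise missed the threshold (0.072 to 0.16), with log2 fold changes between -1.84 and -1.42.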

How the data were processed

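RNA from MHCII-positive BMDCs was sequenced and mapped by the authors with CLC Genomics Workbench 22.0 to GRCm39, per the methods of the study. The submitters' processing notes name GRCm38. Gene positions in the files overlapped GENCODE M39 (GRCm39) genes of the same ID in 99.9% of 41182 cases, so GRCm39 is used here. The values analysed are the total gene reads, whole-number read counts per gene without normalization, which the authors deposited for each library; how reads of several matches were assigned and whether strand was used is not given in the sources used here. The deposited columns of unique reads were used for an alternative.

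The 31 members and the other lists were chosen with earlier results of these data known. Each comparison of 2 groups was fitted on its own 6 libraries, and the interaction on all 12, with the quasi-likelihood test of edgeR 4.0.16 (R 4.3.3) after TMM scaling and a filter on low counts (filterByExpr, minimum count 10). P-values were adjusted over all genes tested (Benjamini-Hochberg, threshold 0.05). Standard errors come from the same fits. The depth allowed a floor of 3 reads per library, which covers counting error only. All members were described, and of each further list up to 3 genes per direction with the smallest adjusted p, except 1 gene that is not reported here.

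Same-numbered libraries of different groups deviated together from their group means in each of 12 pairs of libraries (correlations 0.265 to 0.716, all above 0.1). On this rule the number was used as a block, although the labels do not say what it stands for. Replicates 1 and 2 of different groups also passed the rule across unlike numbers (0.154 to 0.334). Against replicate 3 both were negative (-0.571 to -0.321). The rule thus sets replicate 3 apart and cannot tell whether 1 pairs with 1 and 2 with 2. The fit with the replicate block was an alternative, as were RLE factors, scaling by library total, no filter, a minimum count of 30, unique reads, DESeq2 1.42.0, an offset for exon length (lowess span 0.3) with the block, a fit on all 12 libraries, and leaving out each library. Library total with the block, all 12 libraries with the block, and replicates 1 and 2 alone were added after seeing the data. The scripts were tested on simulated counts. Promoter windows came from a RefSeq table and were searched on both strands.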

Additional observations from a re-analysis of the deposited data

How the results depend on the processing

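Counts are given as members higher and lower, then genes higher and lower, at an edgeR adjusted p under 0.05 unless another tool is named. For LPS in CD18fl/fl (without the block 0 and 2 members, 263 and 233 genes), the replicate block gave 0 and 4, and 807 and 820. Other settings gave 0 and 1 members with RLE factors, 143 and 304 genes with scaling by library total, 2 and 3 with 969 and 826 by DESeq2, 1 and 3 with 898 and 840 under the length offset with the block, 0 and 2 with 568 and 500 on all 12 libraries, 0 and 6 with 476 and 1145 under library total with the block, 3 and 7 with 1670 and 1695 on all 12 libraries with the block, and 10 and 8 with 3000 and 3140 from replicates 1 and 2 alone. Leaving out 1 library gave 0 to 5 and 0 to 6 members, and 0 to 1613 and 0 to 1655 genes, highest without LPS replicate 3.

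For LPS in CD18CD11c cKO (0 and 1 members, 283 and 223 genes), the block gave 2 and 7, and 1300 and 1260. Scaling by library total gave 186 and 300 genes, no filter 436 and 369, DESeq2 1 and 2 with 776 and 755, the length offset with the block 3 and 7 with 1360 and 1208, all 12 libraries 0 and 2 with 513 and 470, library total with the block 1 and 11 with 884 and 1864, all 12 libraries with the block 1 and 7 with 1621 and 1395, and replicates 1 and 2 alone 2 and 2 with 1021 and 1028. Leaving out 1 library gave 0 to 1 and 0 to 2 members, and 0 to 545 and 0 to 488 genes, again highest without LPS replicate 3.

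Between the genotypes in unstimulated cells (0 throughout without the block), the block gave 4 and 1, and 1555 and 1051. DESeq2 gave 1 and 0 with 491 and 47, the length offset with the block 4 and 0 with 1002 and 606, all 12 libraries 17 and 2 genes, library total with the block 1 and 10 with 701 and 3882, all 12 libraries with the block 1 and 0 with 678 and 437, and replicates 1 and 2 alone 1 and 2 with 1034 and 349. The 4 members higher under the length offset were not the same 4 as with the block alone, since Ebp missed the threshold there. After LPS (0 throughout without the block), the block gave 0 members and 869 and 393 genes, no filter 1 and 0 genes, DESeq2 141 and 9, the length offset with the block 647 and 283, all 12 libraries 43 and 2, library total with the block 0 and 6 members with 590 and 2052 genes, all 12 libraries with the block 504 and 119, and replicates 1 and 2 alone 402 and 121. Leaving out 1 library gave 0 in both states, except 1 gene higher after LPS. The interaction had 0 calls under each setting run, and a separate fit on all 12 libraries does not apply to it. The cause of these differences was not tested.

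Over single members, comparisons and settings, 0 results changed their direction while called, 2540 kept direction and side of the threshold, 118 passed it that had not, 15 no longer passed it, and 237 changed sign without a call under either setting. Groups of 3 libraries, of which replicate 3 stood apart, limited the precision, and depth limited Elovl6. Scaling by library total moved the median of all genes to -0.32 and -0.23 after LPS and to -0.44 and -0.37 between the genotypes (unstimulated and LPS), and calls in either direction are relative to that shift. In the genotype comparisons, log2 fold changes fell with exon length (Spearman's rho = -0.38 and -0.28 across genes), and the length offset with the block was run for this reason.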
